A study of Mus musculus with 4 samples.

Results

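The comparison concerns the genes of the cell cycle and of mitosis in mammary glands of mice with and without *miR-21*. The set holds 44 genes, chosen by their function with earlier results of these data known. All 44 were found among the 22483 named loci of the deposited RNA-Seq table, which lists 30506 loci in all. Where a gene had several rows, the row with the highest mean level was used. Poly(A) RNA had been sequenced from 4 mice of mixed 129SV::FVB/N::C57BL/6 background and 2 months of age, 2 of them *miR-21+/+* (WT) and 2 *miR-21-/-* (KO). The KO mice carry the deletion in all tissues, not in the epithelium alone, and the sample is whole mammary tissue. Levels are given in FPKM, a read density scaled by transcript length and by library size. Each genotype has a single FPKM value that stands for both of its mice. The spread between mice and the depth of the libraries are therefore not known here, and no difference below has a replicate check, an error or a p-value. The deleted gene could not be checked, since its row is a locus merged with its host gene *Vmp1* (*Mir21*, *Vmp1*), with 42.5 FPKM in WT and 68.2 in KO glands.

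A cell that divides copies its DNA in S phase and separates the copies in mitosis. D-type cyclins with CDK4 and CDK6 start the cycle in G1, cyclin E with CDK2 carries it into S phase, and cyclins A and B with CDK1 drive it into mitosis, while CDK inhibitors hold cells at rest. Genes of S phase are switched on by E2F factors, and genes of mitosis are switched on later by a complex of MYBL2 and FOXM1 with the MuvB proteins, which binds a promoter element called CHR, often next to CCAAT boxes. In the virgin gland, dividing cells lie mostly in the growing ducts, and lymphocytes and stromal cells divide as well.

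Most of the cell cycle genes had lower values in KO glands, with *Rrm2* and *Ccne1* lowest and genes of mitosis next. Of the 44 genes, 41 had a lower FPKM in KO than in WT glands (38 with equal sums over named loci), against 55.7% of the 13301 named loci with a mean of at least 1 FPKM over both genotypes. At least 1.5-fold lower were 15 genes, or 34.1%, against 5.83% of the named loci, and at least 1.5-fold higher were 0 genes, against 5.03% of the named loci. The 15 became 10 with equal sums over named loci, against 4.38% of the named loci, and 7 with a pseudocount of 1 FPKM, against 4.01%. All 44 genes passed the minimum of 1 FPKM, so none was left out. Their median log2 ratio, KO over WT, was −0.48, beside −0.03 for all named loci. Scaling both columns to equal FPKM sums over all loci shifted every log2 ratio by −0.63, which put 65.2% of the named loci and 41 of the 44 genes at 1.5-fold lower or beyond, but left the distance between both medians at −0.45.

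The share of loci past 1.5-fold differed with level, so it was also read within classes of level. Among 21 cell cycle genes with a mean of 1 to 5 FPKM, 10 were at least 1.5-fold lower, against 10.8% of the named loci at that level. Among 16 genes of 5 to 20 FPKM these were 5, against 3.32%, and among the 7 genes above 20 FPKM they were 0, against 4.46%. The median log2 ratio was −0.58, −0.38 and −0.13 in these classes. The limit of 1.5-fold runs through a dense stretch of values, with *Cenpa* at −0.62 and *Ccnb2* at −0.61 just past it and *Foxm1* and *Tpx2*, both at −0.58, just short of it.

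**Figure D1:**
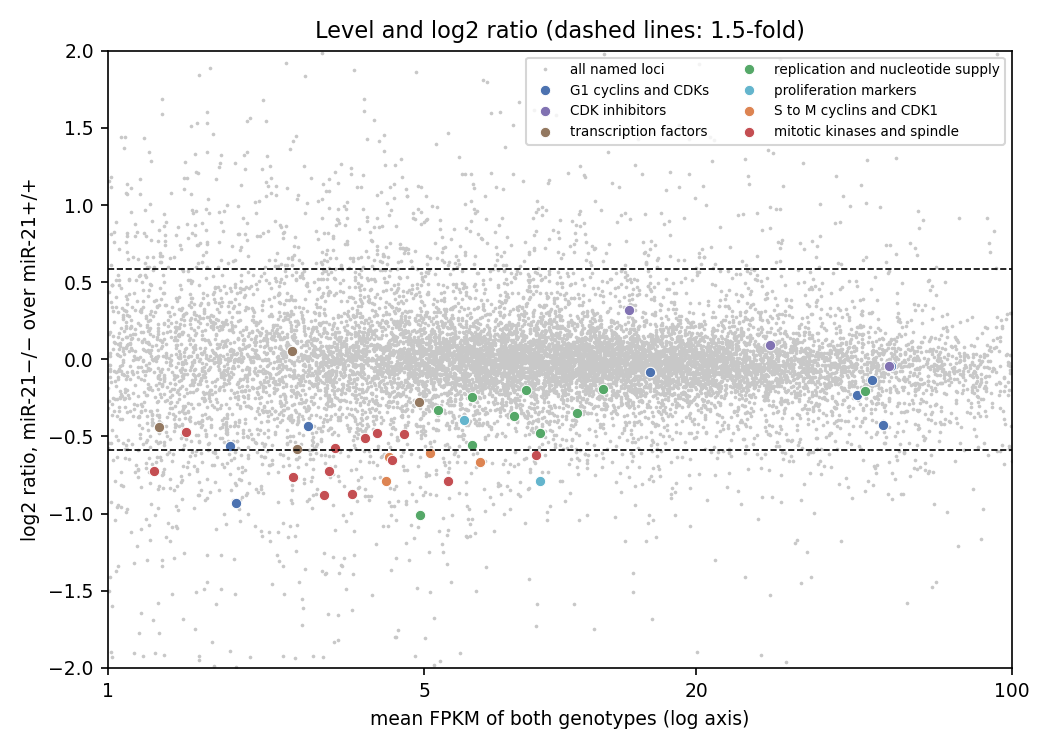
Each point is a named locus, with its mean FPKM over both genotypes on a log axis and its log2 ratio, KO over WT, on the other; cell cycle genes are coloured by role and dashed lines mark 1.5-fold. The mitotic genes lie between 1 and 10 FPKM and below 0, and the cyclin and CDK genes above 20 FPKM lie between −0.42 (*Ccnd2*) and −0.05 (*Cdk4*, above 0 with equal sums over named loci) (659 loci fall outside the plotted range).

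The D-type cyclins and *Cdk4* were the most abundant of the G1 cyclins and CDKs, and the ratios of the group ran from −0.93 to −0.05. *Cdk4*, the kinase partner of the D-type cyclins, stood at 54.7 FPKM in WT and 53.0 in KO glands. *Ccnd3*, encoding cyclin D3, stood at 51.3 and 46.8 FPKM, and *Ccnd1*, the D-type cyclin best known from mammary growth, at 49.1 and 41.8 FPKM. *Ccnd2* showed the widest gap of the D-type cyclins, 59.5 against 44.3 FPKM, a log2 ratio of −0.42. None of the 3 D-type cyclins reached 1.5-fold, and neither did *Cdk6*, the other partner kinase, at a far lower level of 3.19 and 2.36 FPKM. The sign of *Cdk4* turned with equal sums over named loci.

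The cyclin E genes stood apart from their kinase. *Cdk2* was 16.3 FPKM in WT and 15.4 in KO glands, a log2 ratio of −0.08, whose sign also turned with equal sums over named loci. *Ccne1* (mm9, chromosome 7, 38883003 to 38892509, minus strand) was 2.52 and 1.32 FPKM, a log2 ratio of −0.93, and *Ccne2* was 2.21 FPKM in WT glands with a log2 ratio of −0.56. *Ccne1* was the only one of the 8 G1 cyclins and CDKs past 1.5-fold, and the median of the group was −0.33. A single gene is 12.5% of the group, against 5.83% of all named loci lower. At 1 to 5 FPKM, the level of *Ccne1*, *Ccne2* and *Cdk6*, it was 10.8% of the named loci. Above 20 FPKM, the level of the D-type cyclins and *Cdk4*, it was 4.46%. A single gene is not read as a result about the group. With a pseudocount of 1 FPKM the log2 ratio of *Ccne1* was −0.60.

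The CDK inhibitors did not share the lower values. *Cdkn1a*, encoding p21, stood at 12.7 FPKM in WT and 15.8 in KO glands, a log2 ratio of 0.32. *Cdkn1b*, encoding p27, stood at 28.2 and 30.1 FPKM, and *Cdkn2c*, encoding the CDK4 and CDK6 inhibitor p18, at 54.3 and 52.7 FPKM. None of the 3 was past 1.5-fold, and the signs of *Cdkn1a* and *Cdkn1b* turned with equal sums over all loci while that of *Cdkn2c* turned with equal sums over named loci. As levels per length, *Cdkn2c* and *Cdk4* were close, at 54.3 and 54.7 FPKM in WT glands. Further CDK inhibitors, held in the list of brakes given below, had lower values in KO glands. Their log2 ratios were −0.33 for *Cdkn2b*, −0.23 for *Cdkn2d*, −0.09 for *Cdkn1c* and −0.08 for *Cdkn2a*. The signs of *Cdkn1c* and *Cdkn2a* depend on the scaling, and these inhibitors were named after their values were seen.

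**Figure D2:**
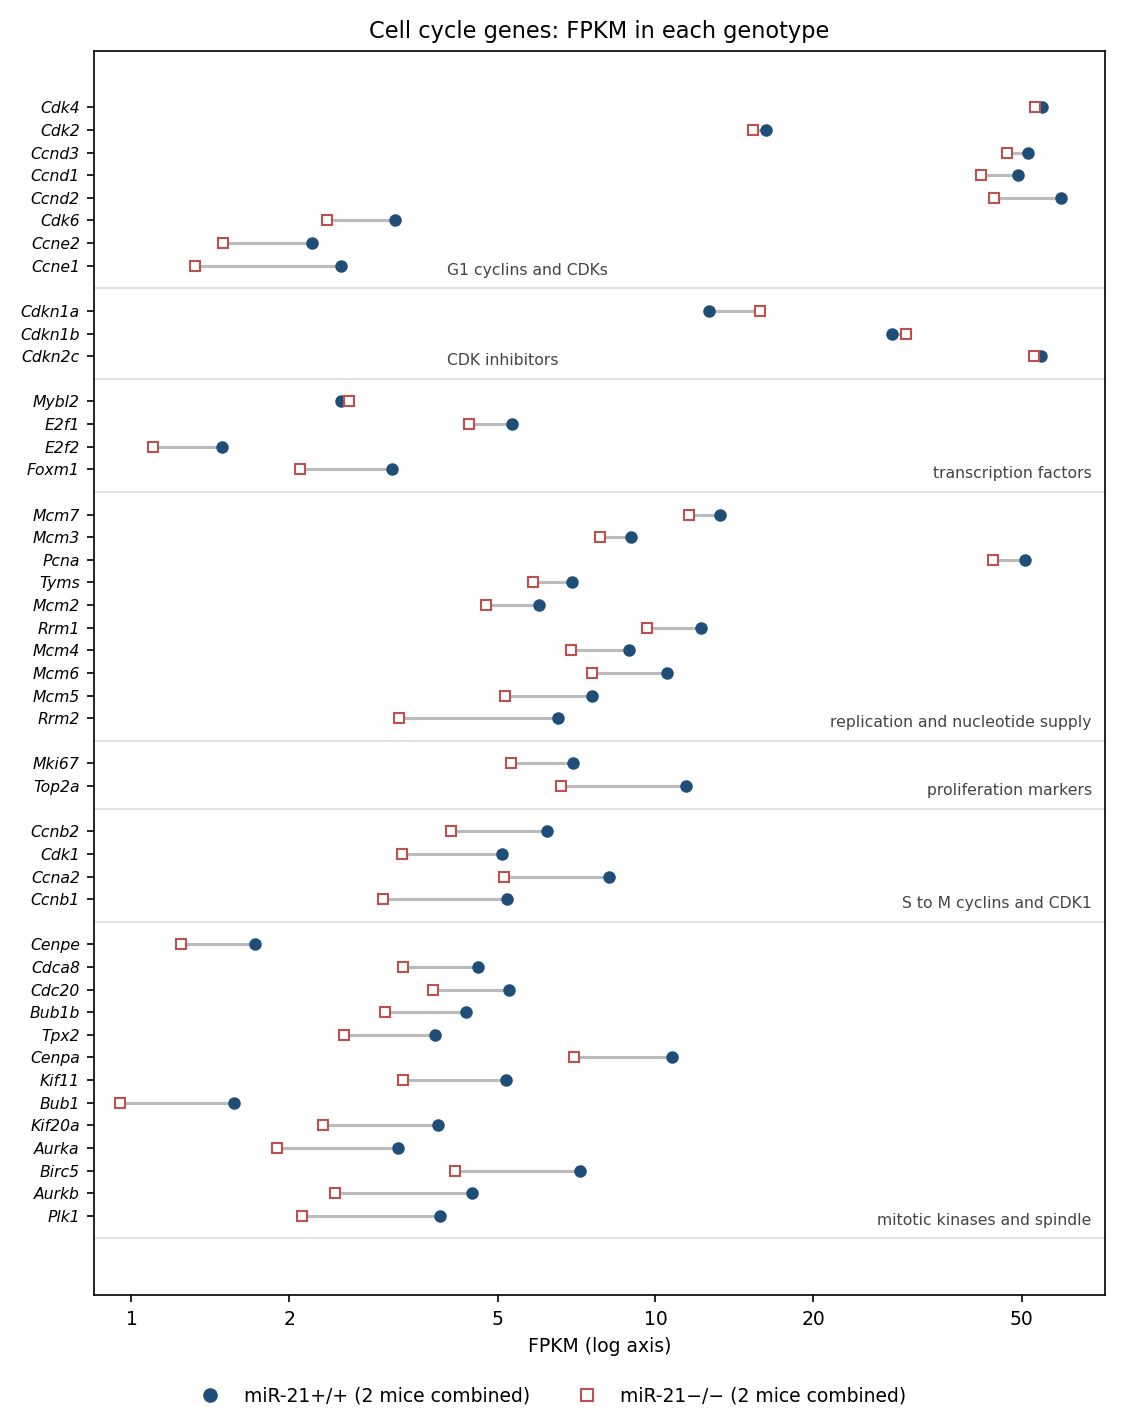
FPKM of each of the 44 cell cycle genes on a log axis, grouped by role, with filled circles for WT and open squares for KO glands, each the authors' value for 2 mice combined. In the groups of replication, proliferation markers, S to M cyclins and mitosis every square lies left of its circle, from *Rrm2* with 6.53 and 3.25 FPKM to *Mcm7* with 13.2 and 11.6 FPKM, while the squares of *Cdkn1a*, *Cdkn1b* and *Mybl2* lie to the right (to the left with equal sums over all loci).

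All 10 genes of DNA replication and nucleotide supply had lower values in KO glands. The 6 subunits of the MCM helicase, which is loaded on DNA before S phase and unwinds it, lay between 5.98 (*Mcm2*) and 13.2 FPKM (*Mcm7*) in WT and between 4.76 and 11.6 FPKM in KO glands. All 6 were lower, with log2 ratios of −0.19 for *Mcm7*, −0.20 for *Mcm3*, −0.33 for *Mcm2*, −0.37 for *Mcm4*, −0.48 for *Mcm6* and −0.55 for *Mcm5*. None reached 1.5-fold. *Pcna*, the sliding clamp of the polymerases, stood at 50.7 and 44.1 FPKM, and *Tyms*, which makes thymidylate, at 6.93 and 5.85 FPKM.

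The widest gap of all 44 genes was that of *Rrm2* (mm9, chromosome 12, 25393119 to 25399011, plus strand), from 6.53 FPKM in WT to 3.25 in KO glands, a log2 ratio of −1.01. *Rrm2* encodes the small subunit of ribonucleotide reductase, the enzyme that supplies deoxynucleotides, and is made mainly in S phase. The large subunit, *Rrm1*, which is present more steadily through the cycle, went from 12.2 to 9.62 FPKM, or −0.35. *Rrm2* was the only one of the 44 genes at 2-fold or more, a count close to the 2.15% of the named loci lower to that extent. It was also the only one of the 10 replication genes past 1.5-fold, which is 10% of them. Among the named loci the share was 10.8% at 1 to 5 FPKM, the level of *Rrm2*, and 3.32% at 5 to 20 FPKM, where most of the 10 genes lie. A single gene is not read as a result about the group. The median of the 10 replication genes was −0.34.

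Promoters of 7 of the 35 cell cycle genes matched in the RefSeq promoter table (20%) held an E2F match, written TTTGGCGC, TTTCCCGC, TTTCGCGC or TTTGCCGC on either strand from 250 bases before to 50 bases after the annotated start, against 2.60% of all 27025 genes of that table. Among the 9 replication genes matched these were 4. *Mcm5* and *Mcm6* are shown because their ratios were the lowest of the helicase subunits and each holds an overlapping pair of E2F matches on opposite strands, besides a single one in *Mcm6*. Both are genomic sequence of GRCm38.p6 read 5′ to 3′ along the gene, from base −160 to base 19 with the first transcribed base counted as 0, at chr8:75109349-75109528 (plus strand) and chr1:128359686-128359865 (minus strand). Capitals mark the E2F matches and CCAAT boxes (CCAAT or its complement ATTGG).
Mcm5: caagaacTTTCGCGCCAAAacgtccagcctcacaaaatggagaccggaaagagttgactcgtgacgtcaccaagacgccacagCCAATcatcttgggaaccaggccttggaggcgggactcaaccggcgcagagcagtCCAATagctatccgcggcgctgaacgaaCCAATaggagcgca
Mcm6: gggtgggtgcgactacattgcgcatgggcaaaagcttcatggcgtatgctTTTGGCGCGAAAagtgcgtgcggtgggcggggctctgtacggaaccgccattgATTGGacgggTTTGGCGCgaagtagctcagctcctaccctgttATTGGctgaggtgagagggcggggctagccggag

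The cyclins of S phase and mitosis and their kinase all had lower values in KO glands. *Ccna2*, the cyclin of S and G2 phase, went from 8.16 to 5.14 FPKM, a log2 ratio of −0.67. *Ccnb1* and *Ccnb2*, the mitotic cyclins, went from 5.22 to 3.02 and from 6.21 to 4.07 FPKM, or −0.79 and −0.61. *Cdk1*, their kinase, went from 5.09 to 3.28 FPKM, or −0.63. All 4 were at least 1.5-fold lower, within a narrow band of log2 ratios, and their median was −0.65. *Ccna2* overlaps exons of the antisense gene *Exosc9*, and without strand the reads of such a pair cannot be told apart. The same limit holds for *Cdk4*, *Cdk6*, *Ccnd1*, *Ccnd3*, *Ccne2*, *Mcm7*, *Tyms*, *Cdc20*, *Cdca8* and *Kif20a*, which also overlap antisense exons.

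The genes of mitosis itself had the same median with a wider range. All 13 kinases, checkpoint and spindle genes were lower, by log2 ratios from −0.88 to −0.47 with a median of −0.65, and 8 of the 13 were at least 1.5-fold lower. *Plk1*, a kinase of mitotic entry, stood at 3.89 FPKM in WT and 2.11 in KO glands, a log2 ratio of −0.88. *Aurkb* and its partners in the chromosomal passenger complex, *Birc5* (survivin) and *Cdca8* (borealin), stood at 4.47, 7.17 and 4.58 FPKM in WT and at 2.44, 4.14 and 3.29 FPKM in KO glands. Among these members of the complex the log2 ratios ran from −0.87 for *Aurkb* over −0.79 for *Birc5* to −0.48 for *Cdca8*. *Incenp*, a further subunit held in the list of mitosis given below, lay at −0.22. It was named after its values were seen.

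*Aurka*, the kinase of the spindle poles, and *Tpx2*, its activator, stood at 3.23 and 3.80 FPKM in WT against 1.90 and 2.55 FPKM in KO glands, with log2 ratios of −0.76 and −0.58. The spindle checkpoint kinase *Bub1* was the lowest in level, at 1.57 and 0.950 FPKM (−0.73), and its relative *Bub1b* stood at 4.34 and 3.05 FPKM (−0.51). *Cdc20*, which starts anaphase once the checkpoint is met, stood at 5.26 and 3.76 FPKM (−0.49). Checkpoint genes thus lay on both sides of the 1.5-fold limit.

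The motors and centromere proteins showed the same direction. *Kif11*, the motor that separates the spindle poles, went from 5.17 to 3.30 FPKM (−0.65), and *Kif20a*, a motor of cytokinesis whose exons overlap the antisense gene *Cdc23*, from 3.84 to 2.32 FPKM (−0.73). *Cenpa*, the centromeric histone, went from 10.7 to 6.99 FPKM (−0.62), and *Cenpe*, a kinetochore motor, from 1.72 to 1.24 FPKM (−0.47). The proliferation markers were lower too, *Top2a*, the topoisomerase that untangles chromosomes, from 11.4 to 6.61 FPKM (−0.79) and *Mki67*, encoding the Ki-67 antigen, from 6.97 to 5.30 FPKM (−0.40). The table holds a second *Mki67* row at the same locus with 1.74 and 1.42 FPKM. The authors' table marks the test at the loci of *Top2a*, *Kif20a* and *Tpx2* as failed, and without these 3 the number of genes at least 1.5-fold lower was 13.

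**Figure D3:**
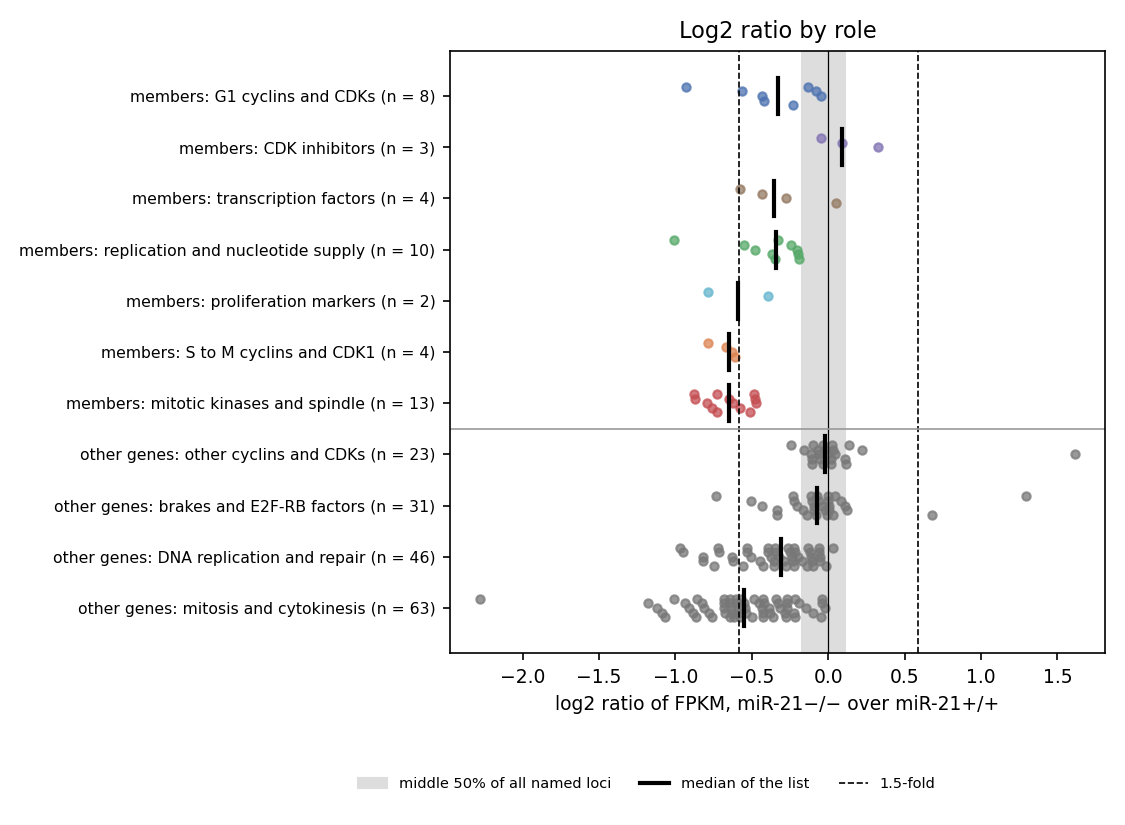
Log2 ratio, KO over WT, of each gene with a mean of at least 1 FPKM, by role, with the 44 cell cycle genes above the line and 4 further lists below it; black bars are medians, dashed lines mark 1.5-fold and the grey band holds the middle 50% of all named loci. The medians go from −0.33 for G1 cyclins and CDKs to −0.65 for mitotic kinases and spindle genes among the 44, and from −0.02 to −0.55 among the further lists, while the CDK inhibitors among the 44 lie at 0.09. With equal sums over all loci these inhibitors lie at −0.54, the G1 cyclins and CDKs at −0.96 and the mitotic kinases and spindle genes at −1.28.

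Most matched promoters of the mitotic genes held the CHR element, searched as TTTGAA or TTCGAA on either strand in the same window. Among the 10 mitotic kinases and spindle genes matched in the promoter table, 8 held it (80.0%), against 21.7% of all 27025 genes, and 9 held a CCAAT box, against 41.1%. Both proliferation markers and 2 of the 3 matched genes for S to M cyclins and CDK1 held CHR as well, but 0 of the 5 matched G1 cyclins and CDKs and 0 of the 3 CDK inhibitors did. Over the 35 matched genes, the 15 with a CHR match had a median log2 ratio of −0.61 and the 20 without one −0.26, a split that largely separates the role groups. Within the S to M cyclins, mitotic genes and proliferation markers, joined after their values were seen, the order was the opposite, with −0.63 over 12 genes with a match and −0.79 over 3 without one. Within the further list of mitosis and cytokinesis given below, the order was not reversed. There the median was −0.59 over 40 genes with a match and −0.43 over 13 without one. Over all genes with a promoter and a mean of at least 1 FPKM, the 1537 with a match had a median of −0.04 and the 7882 without one −0.03, which are nearly equal. At least 1.5-fold lower were 122 of these 1537 and 401 of these 7882. *Rrm2* (−1.01), *Ccne1* (−0.93), *Birc5* (−0.79) and *Ccnb1* (−0.79) held no match in this window, which says only that these letters are not in it.

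The following windows show CHR and CCAAT near the start of genes that were lower in KO glands. Each gene shown with these letters holds both within its window, so the closeness follows from the choice of genes. Other genes held them outside such a window. CHR began at base 32 in *Aurka*, at 30 in *Plk1* and at −116 and −98 in *Mki67*, and CCAAT at −109 and −86 in *Cenpa*. Each window shown runs from base −75 to base 24 around the annotated start in GRCm38.p6, read along the gene, with CHR and CCAAT matches on either strand in capitals (so TTCAAA is a CHR match read backward). In *Cdca8* a CHR and a CCAAT match overlap, so that their capitals run on as a single stretch.
Cdk1, chr10:69352888-69352987, minus strand: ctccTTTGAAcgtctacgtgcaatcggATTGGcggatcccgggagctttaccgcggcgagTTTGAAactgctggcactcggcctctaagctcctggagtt
Ccnb2, chr9:70421530-70421629, minus strand: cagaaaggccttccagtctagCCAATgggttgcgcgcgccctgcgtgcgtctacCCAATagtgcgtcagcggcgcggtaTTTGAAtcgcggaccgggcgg
Bub1, chr2:127831835-127831934, minus strand: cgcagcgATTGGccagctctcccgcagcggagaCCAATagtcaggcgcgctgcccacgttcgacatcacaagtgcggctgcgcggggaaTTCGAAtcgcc
Cdca8, chr4:124936893-124936992, minus strand: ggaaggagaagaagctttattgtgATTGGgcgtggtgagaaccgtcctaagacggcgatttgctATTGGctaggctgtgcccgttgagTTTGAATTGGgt
Kif11, chr19:37376307-37376406, plus strand: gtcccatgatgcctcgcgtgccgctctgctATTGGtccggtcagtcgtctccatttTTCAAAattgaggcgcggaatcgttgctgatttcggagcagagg
Top2a, chr11:99024165-99024264, minus strand: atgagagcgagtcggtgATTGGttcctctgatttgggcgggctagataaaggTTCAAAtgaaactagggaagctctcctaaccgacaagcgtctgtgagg
The same window of *Cdk4*, whose log2 ratio was −0.05 (above 0 with equal sums over named loci), holds neither these letters nor an E2F match, and is shown only as a window without them, since *Ccne1* at −0.93 lacks them too and *Mcm7* at −0.19 holds CHR.
Cdk4, chr10:127063460-127063559, plus strand: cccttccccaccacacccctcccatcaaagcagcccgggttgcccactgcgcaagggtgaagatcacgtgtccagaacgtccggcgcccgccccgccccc

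**Figure D4:**
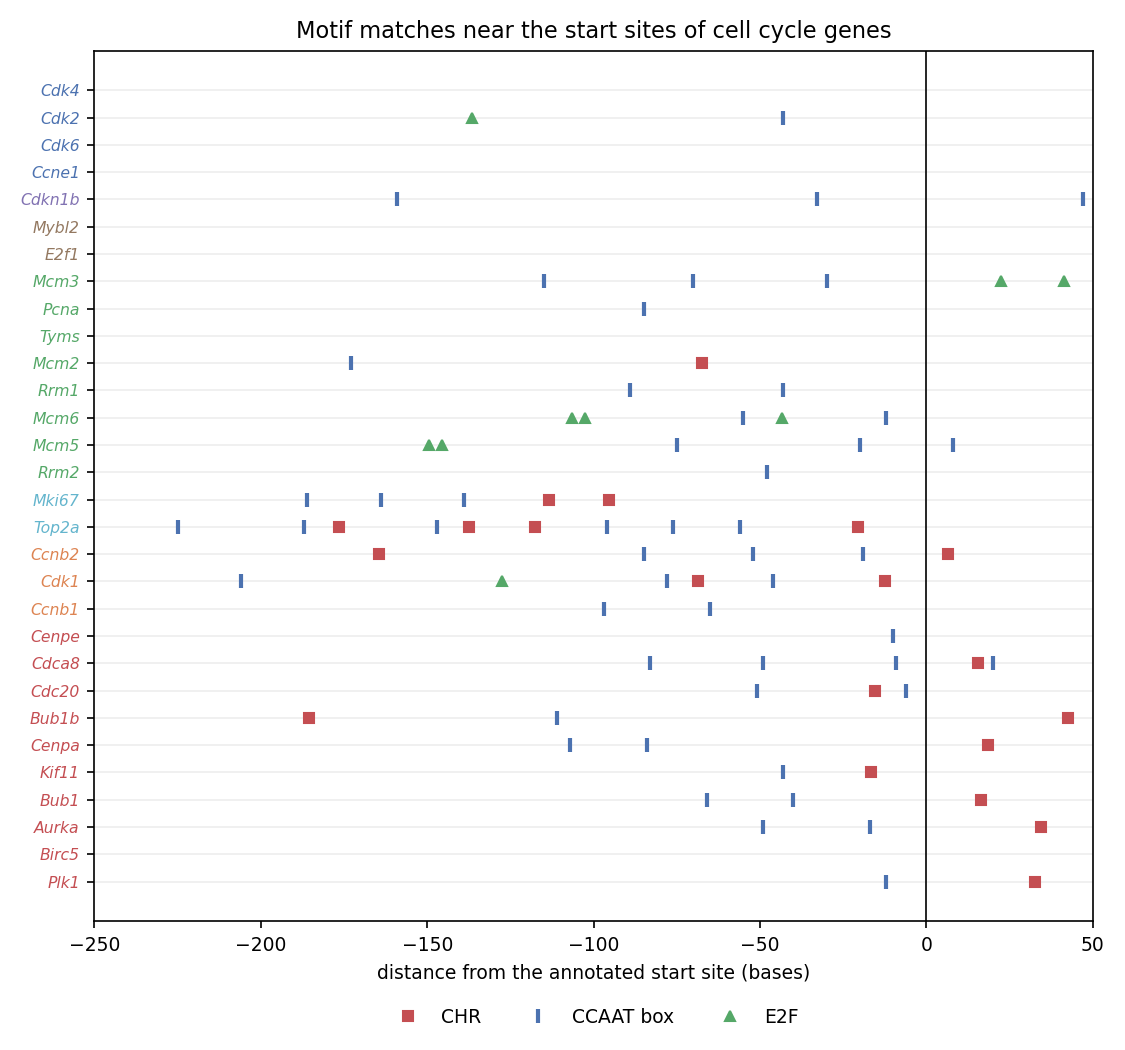
Positions of CHR (squares), CCAAT (bars) and E2F (triangles) matches in bases from the annotated start site, for the 30 cell cycle genes with a single promoter window in the RefSeq table, ordered by role and coloured as in the plot of level and ratio. Of the 10 mitotic kinases and spindle genes 8 hold a CHR match, most of them close to the start, and the genes with an E2F match are mainly helicase subunits.

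The transcription factors of the cycle were low in level. *E2f1* stood at 5.33 FPKM in WT and 4.40 in KO glands, *E2f2* at 1.49 and 1.10 FPKM and *Foxm1*, which drives mitotic genes, at 3.14 and 2.10 FPKM. Their log2 ratios were −0.28, −0.44 and −0.58, and none of the factors passed 1.5-fold. The *Foxm1* row is a merged locus that also carries *4933413G19Rik*, so its reads are not its own alone. *Mybl2*, the MuvB partner, is uncertain: its higher row gave 2.51 and 2.60 FPKM (0.05, with the sign turned by equal sums over all loci), and a second row at the same locus gave 1.69 and 1.07 FPKM (−0.66).

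Further genes of the cycle, 174 in 4 lists written from general knowledge, are given by list, with the same 5.83% of named loci as background. Earlier results of these data were known when the lists were written, so they are no independent check. At 1 to 5 FPKM that share was 10.8%. The median WT levels of the lists of mitosis and of replication lay in this class, at 3.15 and 4.39 FPKM. In the list of mitosis and cytokinesis all 63 genes above the minimum of 1 FPKM (of 70) had lower values in KO glands (58 with equal sums over named loci), with a median of −0.55, and 29 of them at least 1.5-fold. Promoters of 42 of the 58 matched genes of this list (72.4%) held CHR. The lowest were *Pttg1* (securin) from 10.7 to 2.20 FPKM, a log2 ratio of −2.28, then *Cenph*, a kinetochore protein, at −1.18 and the checkpoint kinase *Ttk* at −1.12. At the other end stood *Cks1b*, a CDK subunit, at −0.02, *Lmnb1*, lamin B1 of the nuclear envelope, and *Kif22*, a chromosome motor, both at −0.04, and the signs of these 3 turned with equal sums over named loci. The value of *Kif22* is that of a locus merged with 3 other names, including *Maz* and *Prrt2*.

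In the list of DNA replication and repair 45 of 46 genes had lower values (39 with equal sums over named loci), with a median of −0.31, and 9 passed 1.5-fold. *Tk1*, the S phase thymidine kinase, went from 8.22 to 4.25 FPKM (−0.95), and *Ung*, uracil glycosylase, from 4.25 to 2.41 FPKM (−0.82). *Pola2*, a polymerase subunit, lay at −0.05, and the mismatch repair gene *Msh6* at 0.03, both with signs that depend on the scaling.

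Brakes and E2F-RB factors lay close to all named loci, with a median of −0.07 over 31 genes (0.02 with equal sums over named loci), 1 of them at least 1.5-fold lower and 2 higher. The lower one was *E2f8*, a late repressor E2F, at 1.65 and 0.994 FPKM (−0.73), followed by *Gadd45b* at −0.50 and *Rbl1* (p107) at −0.43. The higher ones were the stress response genes *Gadd45g*, from 14.8 to 36.5 FPKM (1.30), and *Gadd45a*, from 6.55 to 10.5 FPKM (0.68), and *E2f6* came next at 0.12 (below 0 with equal sums over all loci). The list of other cyclins and CDKs, most of which serve transcription rather than division, also holds *Cables1*, *Cdc25a* and *Mnat1*, which are neither. *Cdc25a* and *Mnat1* were named after their values were seen. Its 23 genes had a median of −0.02 (0.08 with equal sums over named loci) and 0 lower by 1.5-fold. They ran from *Ccni* (−0.24), *Ccnh* (−0.16) and *Ccnl1* (−0.11) to *Cables1* (0.14), *Cdk17* (0.22) and *Cdk18*, which went from 4.30 to 13.2 FPKM (1.62). The values of *Cables1* and *Cdk17* turned below 0 with equal sums over all loci.

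Markers of several cell types also differed between genotypes. The labelled tissue showed its epithelial keratins, *Krt19*, *Krt18* and *Krt8*, at 223, 148 and 119 FPKM in WT and at 247, 216 and 197 FPKM in KO glands, and its fat, with *Fabp4* at 7677 and 5523 FPKM. Against 5.83% of the named loci lower and 5.03% higher by 1.5-fold, all 9 T cell markers were at least 1.5-fold lower in KO glands, with a summed level of 48.4 against 11.2 FPKM and a median log2 ratio of −2.22, led in level by *Lck*, *Cd3g* and *Cd2*. Of 10 B cell markers 9 were, with a sum of 131 against 63.7 FPKM and a median of −2.98, and the most abundant, *Cd79a*, went only from 70.3 to 48.3 FPKM, above *Cd37* and *Cd79b*, in a locus merged with *Arhgef1*. Fewer cells of a type and less RNA per cell cannot be told apart in such bulk tissue.

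Germinal centre B cells are a rapidly dividing type. *Bcl6*, *S1pr2* and *Fas* were the only 3 of the 6 in the table above the minimum, with log2 ratios of 0.16, −0.06 and 0.10 (all below 0 with equal sums over all loci), and none of them is particular to that cell type. The *S1pr2* row, at 12.8 and 12.3 FPKM, spans the same locus as *Dnmt1*, at 13.6 and 13.1 FPKM. The authors marked the test of both as failed, and the *S1pr2* value may not be its own. *Dnmt1* was named after its values were seen. All 3 erythroid markers above the minimum had lower values, with near-identical globin copies counted together: *Hba-a1* from 588 to 239, *Hbb-b1* from 396 to 166 and *Alas2* from 9.60 to 3.40 FPKM. Of the plasma cell markers, *Xbp1*, *Sdc1* and *Igj* had log2 ratios of 0.47 (below 0 with equal sums over all loci), −0.90 and −0.91.

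Most epithelial and muscle markers had higher values in KO glands, apart from the scaling named with each. The median log2 ratio was 0.52 over 10 luminal markers (−0.11 with equal sums over all loci), and 4 of them were at least 1.5-fold higher. The widest gap of the luminal list was that of the hormone receptor *Pgr*, from 4.71 to 23.3 FPKM (2.30). Lower values were found for 2, *Foxa1* at −0.35 and the hormone receptor *Esr1* at −0.50, whose test the authors marked as failed. *Pgr*, *Foxa1* and *Esr1* were named after their values were seen. The median was 0.70 over 7 basal markers (0.06 with equal sums over all loci), led by *Acta2*, *Krt5* and *Mylk*, and 5 of them were higher. Over 6 skeletal muscle markers it was 0.79 (0.15), led by *Acta1*, *Ckm* and *Tnnt3*. Since that scaling shifts every locus alike, the distances from the median of all named loci stayed the same. They were 0.55 for luminal, 0.72 for basal and 0.81 for muscle markers. Medians nearer to 0, whose signs for macrophages and endothelium depend on the scaling, were those of macrophages (−0.03 over 6, led by *Lyz2*, *Cd68*, whose locus is merged with *Eif4a1* and *Senp3*, and *Mrc1*), endothelium (0.03 over 5, led by *Cdh5*, *Pecam1* and *Kdr*), fibroblasts (−0.16 over 6, led by *Col3a1*, *Col1a2* and *Dcn*) and adipocytes (−0.27 over 6, led by *Fabp4*, *Adipoq* and *Cidec*, all lower, while *Plin4* at 0.62 and *Lep* at 1.29, named after their values were seen, were past 1.5-fold higher, *Plin4* below 0 with equal sums over all loci). The part of any of these cell types in the lower cell cycle values was not tested.

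**Figure D5:**
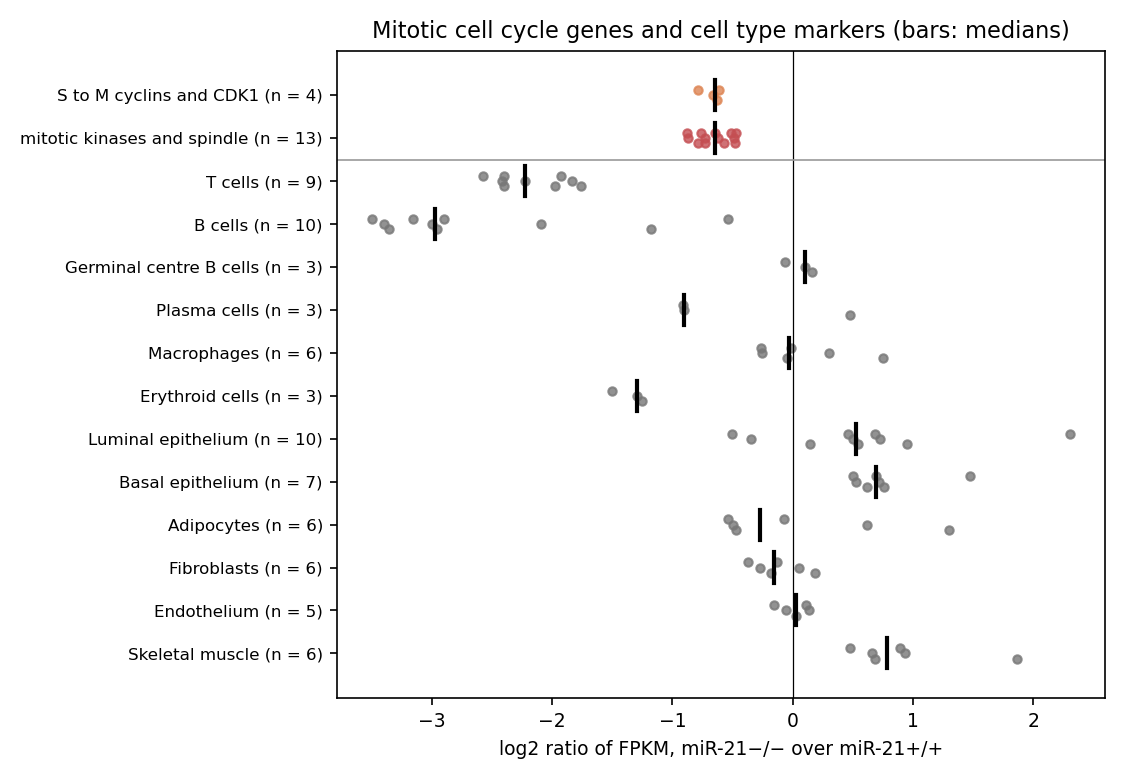
Log2 ratio, KO over WT, of the S to M cyclins and CDK1 and of the mitotic genes (top) and of markers of 12 cell types with a mean of at least 1 FPKM; black bars are medians. The mitotic genes, with medians of −0.65, lie between the lymphocyte markers, at −2.22 and −2.98, and the luminal and basal epithelial markers, at 0.52 and 0.70. With equal sums over all loci the order stays the same. The medians are then −1.28 for the mitotic genes, −2.85 and −3.59 for T and B cells, and −0.11 and 0.06 for luminal and basal epithelium.

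Since the mice lack *miR-21*, the annotated 3′ UTRs of the cell cycle genes were searched for matches to its seed. The mature miR-21 of 22 nt lies on the minus strand of chromosome 11, and the seed (bases 2 to 8) is in capitals; its match in a transcript reads ATAAGCT.
mmu-miR-21a-5p, GRCm38.p6, chr11:86584120-86584141: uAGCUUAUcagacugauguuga
Of the 44 genes 4 held a match in their longest annotated 3′ UTR (9.09%), against 6.95% of 12835 genes with a mean of at least 1 FPKM, so the share was close to that of all genes. The 30 bases around each match are shown as transcript sequence, with the seed match in capitals and its mm9 position.
Cdkn1b, chr6:134873198-134873204, plus strand: tataatagtttATAAGCTccttatgaagaa
E2f2, chr4:135750620-135750626, plus strand: gaactgcatagATAAGCTaccaaaaaaaaa
Pcna, chr2:132075160-132075166, minus strand: ttgcttaaagaATAAGCTccaaagtaaaaa
Tyms, chr5:30386134-30386140, minus strand: attaatattaaATAAGCTggactgaggcat
The log2 ratios of these genes were 0.09 for *Cdkn1b*, −0.44 for *E2f2*, whose match is followed by an A and is thus an 8mer, −0.20 for *Pcna* and −0.25 for *Tyms*. None was past 1.5-fold in either direction.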

How the data were processed

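RNA-Seq of mammary tissue from 2 *miR-21+/+* and 2 *miR-21-/-* mice was analysed. The authors aligned single-end poly(A) reads to mm9 with TopHat, and the submitters' notes also name CASAVA. The deposited FPKM values come from Cufflinks as Cuffdiff output, with one value per genotype. Versions and annotation are not given in the sources used here. The authors' fold change, test statistic, p-value, q-value and call columns were not used, and their status column served only to leave out loci in an alternative. No replicate error, depth or interval could be computed.

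Log2 ratios are plain ratios of FPKM without a pseudocount. Loci needed a name and a mean of at least 1 FPKM, and 1.5-fold was the limit for lower or higher. The members, role groups and lists were chosen with earlier results of these data known. Named are all 44 members, the 3 highest and 3 lowest of each further list, and the 3 most abundant genes of each marker list, except a few that are not reported here. *Gcsam* and *Mzb1* of the marker lists matched no row. Of the 44 loci, 13 extend over 1000 bp beyond the annotated gene, and exons of 13 genes overlap another gene, for 11 of them antisense. Promoters and miR-21 came from RefSeq tables (GRCm38.p6), 3′ UTRs from the GENCODE annotation (mm9). The calculations were tested on simulated data. Python 3.11.15, numpy 2.4.6, pandas 2.3.3 and matplotlib 3.10.9 were used.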

Additional observations from a re-analysis of the deposited data

How the results depend on the processing

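No paired analysis was possible because each genotype comes as one combined value, and for this reason no mouse could be left out either. No spread between replicates exists, so a median was said to move beyond 0.1 on the log2 scale and a count beyond 1.5 times. With a pseudocount of 0.1, a median ratio of 0, summed rows, no minimum FPKM, tested loci alone or no merged loci, no count or median moved, but summed rows turned *Mybl2* below 0, which put 42 genes below *miR-21+/+* in place of 41. Against 15 lower and 0 higher cell cycle genes, the planned smaller fold limit gave 31 and 1, beside 13.7% of the named loci lower. A limit of 2-fold gave 1 lower, beside 2.15% of the named loci.
A pseudocount of 1 FPKM, which shrinks the ratios of low genes, gave 7 lower, medians of −0.54 (S to M cyclins and CDK1), −0.52 (mitotic kinases and spindle) and −0.24 (transcription factors), and in the further lists 4 lower for replication, 0 for brakes, and 10 for mitosis with a median of −0.36. Of the named loci 4.01% were lower with this pseudocount. With a mean of at least 5 FPKM, which leaves fewer genes, 5 were lower and 21 below *miR-21+/+*, with medians of −0.33 over all and −0.13 for G1 cyclins and CDKs, and the further lists gave 2 lower and −0.14 for replication, 0 lower for brakes, and 3 lower and −0.25 for mitosis. The shares of named loci lower were 3.32% at 5 to 20 FPKM and 4.46% above 20 FPKM. Equal sums over named loci gave 10 lower cell cycle genes, 15 lower for the further list of mitosis and turned the signs of *Cdk2*, *Cdk4* and *Cdkn2c*.
Equal sums over all loci shift every gene by −0.63. They gave 41 lower and a median of −1.11, with −0.54 for CDK inhibitors, −0.96 for G1 cyclins and CDKs, −1.28 for S to M cyclins and for mitotic genes, −1.22 for proliferation markers, −0.97 for replication and −0.99 for transcription factors. The further lists gave 45 lower and −0.92 for replication, 24 and −0.69 for brakes, 59 and −1.17 for mitosis, and 18 and −0.65 for other cyclins and CDKs. All these counts stand beside 65.2% of the named loci at least 1.5-fold lower under this scaling.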
